A study of Homo sapiens with 44 samples.

Results

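The comparison described here is day 9 against day 3 of heart muscle differentiation in H1 cells, an established line of human embryonic stem cells. It rests on 8 of the 44 RNA libraries of a time course, 3 from day 3 and 5 from day 9, taken by the day in the sample labels. Each library comes from 1 culture well coated with laminin LN-521 plus laminin LN-221, 2 proteins of the extracellular matrix. The day 3 cells had been in RPMI medium with an insulin-free B27 supplement and CHIR99021, a GSK3 inhibitor that switches on Wnt signalling and was given at day 0. The day 9 cells had in addition received IWP2, an inhibitor of Wnt secretion, from day 3, and were then kept in the same medium with insulin-free supplement and neither inhibitor. All wells hold 1 line, so p-values measure the spread between wells only. In the fits of single genes that spread was estimated from all 44 libraries. Wells are named by the replicate numbers of the labels, 1, 2 and 3 at day 3 and 1, 2, 3, 4 and 10 at day 9. Values per well are given in that order throughout.

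In the embryo the heart forms from mesoderm that leaves the primitive streak and briefly expresses the transcription factor MESP1. These cells switch on a network of factors, among them NKX2-5, TBX5, GATA4, HAND2 and MEF2C, which bind the promoters and enhancers of contractile genes. Wnt signalling has opposite roles along this path: it is needed to make mesoderm, and it holds back heart muscle formation afterwards. Contraction itself needs the sarcomere (myosin, actin, titin and the troponin switch), a calcium store that releases and takes up calcium at each beat, and an energy supply built on mitochondria.

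The 8 libraries held 23903377 to 31040870 counts each, with RNA integrity scores of 8.9 to 10 out of 10. The biological coefficient of variation, the spread of a typical gene between wells, was 25.3% at day 9 and 14.1% at day 3. Protein-coding genes took 88.4 ± 0.846% of counts at day 3 (SD, n = 3) and 79.3 ± 6.77% at day 9 (n = 5), and the part of this shift in the results was not tested. Day 9 well 2 stood apart from the other day 9 wells. A list of 12 endoderm and liver genes summed to 7867 CPM (counts scaled to the size of the library) in that well and to 820.2 to 2602 CPM in the others. The 18 sarcomere genes summed to 12754 CPM in well 2, the lowest of the day 9 wells, against 22872 to 29428 CPM. For several genes in which well 2 stood apart, the fold change is given with and without it.

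Of 22955 genes tested, 4870 (21.2%) were called: 2832 (12.3%) were higher and 2038 (8.88%) lower at day 9. A gene was called when edgeR's quasi-likelihood test gave an adjusted p under 0.05 together with a log2 fold change of 1 or more, up or down. In 44.9% of all genes tested the ranges of the 3 and the 5 wells did not overlap (21.2% with day 9 higher and 23.8% with day 9 lower). The median log2 fold change over all genes was 0.02, while 348 genes rose by 5 or more and 123 fell by 5 or more on the log2 scale. Of the called genes 58.2% were higher in this fit, which scales counts by TMM. On TPM, which is scaled to a fixed sum per library, 651 genes were called higher and 3219 lower, so that 16.8% were higher. Fold changes on TPM lay lower by a median of 0.63 on the log2 scale over 5053 genes whose mean TPM reached 10. Protein-coding genes took 39.0 ± 2.60% of TPM at day 3 (SD, n = 3) and 23.6 ± 9.02% at day 9 (n = 5). The part of this library-wide drop in each call on TPM was not tested. Counts of calls on TPM are given beside the lists whose counts differ. Without any 1 well the count of called genes lay between 4317 and 4803.

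**Figure D1:**
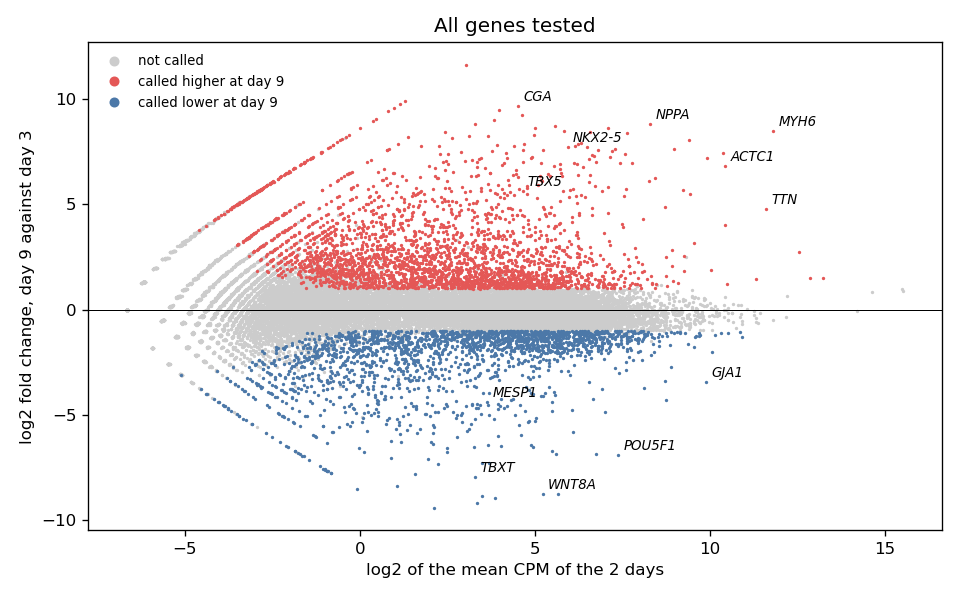
Each point is 1 of the 22955 genes tested, with its log2 fold change (day 9 against day 3) on the vertical axis and the log2 of its mean CPM over both days on the horizontal axis. Called genes are coloured by direction. MYH6, NPPA and CGA lie far above 0 and WNT8A, TBXT and POU5F1 far below it.

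Of 4 genes taken as markers, NKX2-5, TBX5 and MYH6 for heart and MESP1 for mesoderm, the first 3 were higher and MESP1 lower at day 9. NKX2-5, the homeobox factor of early heart precursors (chr5:173232109-173235357, minus strand, hg38), stood at 0.914, 0.335 and 0.491 CPM at day 3 and 149, 91.8, 76.4, 115 and 182 CPM at day 9. TBX5, a T-box factor of the first heart field, stood at 1.75, 0.968 and 0.302 CPM at day 3 and 76.2, 37.5, 45.7, 41.3 and 46.3 CPM at day 9. MYH6, the alpha myosin heavy chain of the atrium and the early heart tube (chr14:23381990-23408277, minus strand), stood at 21.4, 15.4 and 22.7 CPM at day 3 and 7457, 4203, 9090.0, 7618 and 7384 CPM at day 9. All 5 day 9 wells lay above all 3 day 3 wells for each of the 3 genes. MESP1 (chr15:89748661-89751310, minus strand) went the other way, with 16.4, 29.0 and 26.1 CPM at day 3 and 0.872, 1.31, 1.06, 0.846 and 1.63 CPM at day 9, and again the days did not overlap. The log2 fold change was 7.72 for NKX2-5 (SE 0.59, adjusted p = 8.2e-13) and 5.62 for TBX5 (SE 0.55, adjusted p = 2.9e-10). For MYH6 it was 8.49 (SE 0.61, adjusted p = 1.7e-13), a fold of 360.4, and for MESP1 -4.38 (SE 0.51, adjusted p = 1.4e-08). Without day 3 well 1, the well with the most TBX5, the value for TBX5 was 6.25.

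Days 3 and 9 shared sequencing lanes 1 and 2, with 1 well of each day in each. Day 9 wells 1 and 4 were in these lanes. Day 9 wells 2, 3 and 10 were in lanes 4 and 5, which held no day 3 library. Within lane 1 the log2 difference was 7.20 for NKX2-5, 8.44 for MYH6 and -4.09 for MESP1. Within lane 2 it was 8.04, 8.94 and -4.95 in the same order. With the lane as a term of the fit 4635 genes were called. The lanes also held libraries of day 7 and later with many MYH6 reads. The 538, 414 and 602 MYH6 counts of the day 3 wells came to 0.0752, 0.0759 and 0.0717% of the MYH6 counts in the other libraries of their lanes. The same ratio was 0.0717 to 0.107% for NPPA, 0.0597 to 0.105% for TNNT2 and 0.0675 to 0.162% for NKX2-5. For the other 5 heart genes examined it was 0.0699 to 0.109% for MYH7, 0.0934 to 0.279% for MYL7, 0.134 to 0.216% for ACTC1, 0.110 to 0.501% for TBX5 and 0.401 to 0.584% for TTN, so it differed between genes and between wells. MYH6 was also at 17.0 ± 0.587 CPM at day 0 and 17.8 ± 4.03 CPM at day 1 (SD, n = 3 each), before mesoderm. The part of neighbouring libraries in the low day 3 values was not tested, and the folds of genes with such low day 3 values carry that limit. Low day 9 values in wells 1 and 4, and with them the within-lane differences of MESP1, carry it too.

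**Figure D2:**
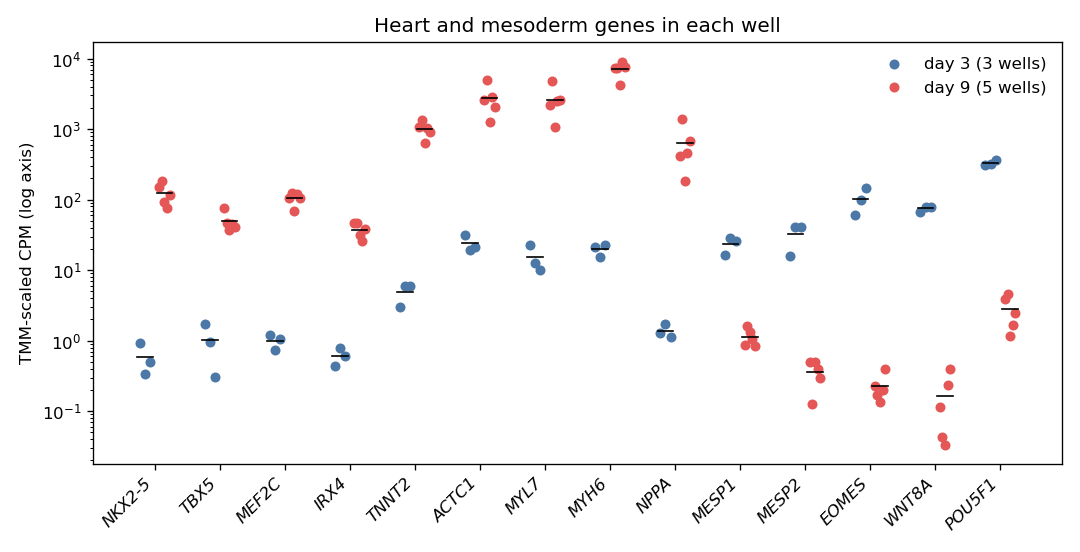
TMM-scaled CPM on a log axis for 14 genes, with 1 point per well, blue for the 3 day 3 wells and red for the 5 day 9 wells, and a bar at each mean. The heart genes at the left lie higher in every day 9 well and the 5 mesoderm, Wnt and pluripotency genes at the right lie lower in every day 9 well.

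Among 15 cardiac transcription factors and coactivators, 11 rose, 0 fell and 4 were not called, with a median log2 fold change of 2.96 against 0.02 over all genes. MEF2C, a MADS-box factor of muscle, stood at 1.19, 0.745 and 1.06 CPM at day 3 and 105, 68.8, 121, 104 and 123 CPM at day 9, with no overlap of the days (log2 fold change 6.70, SE 0.49, adjusted p = 2.0e-13). IRX4, a homeobox factor of the ventricle, went from 0.437, 0.782 and 0.604 CPM to 46.0, 31.1, 25.8, 38.5 and 46.9 CPM (log2 fold change 5.94, SE 0.41, adjusted p = 5.8e-14). SMYD1, a muscle methyltransferase needed to assemble sarcomeres, had means of 1.22 ± 0.153 CPM at day 3 and 197 ± 66.8 CPM at day 9 (log2 fold change 7.33, SE 0.52, adjusted p = 1.4e-13). MYOCD, the coactivator that works with serum response factor on muscle promoters, was already at 38.5, 16.7 and 10.1 CPM at day 3 and reached 166, 83.5, 200.4, 189.7 and 209 CPM (log2 fold change 2.96, SE 0.34, adjusted p = 1.1e-08, and 3.64 without day 3 well 1). Day 3 well 1 was the highest of its day for MYOCD and for HAND2, a factor of the right ventricle and outflow tract with 20.0, 5.92 and 5.85 CPM at day 3 and 79.8, 67.8, 54.3, 47.2 and 67.6 CPM at day 9. The log2 fold change of HAND2 was 2.58, and 3.41 without that well. The T-box factors TBX20 and TBX2, which pattern chamber and non-chamber myocardium, rose by 3.54 and 3.94 on the log2 scale. TBX5, TBX2, HAND2, MEF2C and IRX4 each overlap an antisense gene that was also tested, and reads of the pairs cannot be told apart if strand was not used in counting.

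The 4 factors that were not called were GATA6, HAND1, ISL1 and TBX3. GATA6, a zinc finger factor shared by endoderm and heart, had 86.1 ± 3.52 CPM at day 3 and 85.6 ± 8.65 CPM at day 9 (log2 fold change -0.01), and its sign changed with the scaling of the counts. HAND1, a factor of early and left ventricular mesoderm, had 128 ± 18.3 CPM at day 3 and 73.5 ± 29.9 CPM at day 9 (log2 fold change -0.80, adjusted p = 0.14). ISL1, a marker of second heart field precursors, had 25.8, 24.8 and 24.9 CPM at day 3 and 11.5, 8.01, 10.2, 12.8 and 27.6 CPM at day 9, where day 9 well 10 overlapped the day 3 wells. Its log2 fold change was -0.84 (adjusted p = 0.084). Without day 9 well 10 it was -1.24, a call, and with a lane term -1.15, also a call. On TPM, HAND1 and ISL1 were both called lower (adjusted p = 0.0063 and 8.3e-04, limma). TBX3, a factor of the conduction system, had 74.5 ± 10.4 CPM at day 3 and 115 ± 28.8 CPM at day 9, a log2 fold change of 0.62 on counts and -0.04 on TPM. GATA4, the best known heart GATA factor, rose by the least of those called (log2 fold change 1.05, adjusted p = 0.0028). It fell under the fold threshold without day 9 well 1 (0.99) and on TPM (0.56), where 9 of the list were called higher and 2 lower.

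The sarcomere list had the largest median change of the 23 lists: 16 of 18 genes rose, 0 fell and the median log2 fold change on counts was 5.81. On TPM 16 of 17 were again called higher. The summed level went from 489 to 498 CPM in the day 3 wells to 12754 to 29428 CPM in the day 9 wells. ACTC1, the actin of embryonic and adult heart muscle, stood at 31.5, 19.0 and 21.6 CPM at day 3 and 2550.5, 1282, 2843, 2086 and 5028 CPM at day 9 (log2 fold change 6.84, SE 0.64, adjusted p = 8.3e-11). TNNT2, the cardiac troponin T that anchors the calcium switch on the thin filament, stood at 2.98, 5.92 and 6.04 CPM at day 3 and 1057, 641, 1033, 905 and 1344 CPM at day 9 (log2 fold change 7.64, SE 0.40, adjusted p = 8.8e-17). MYL7, the regulatory myosin light chain of the atrium, stood at 22.7, 12.8 and 9.92 CPM at day 3 and 2176, 1062, 2477, 2609 and 4758 CPM at day 9 (log2 fold change 7.43, SE 0.66, adjusted p = 2.6e-11). Well 2 was the lowest day 9 well for all 3 of these genes, and still lay far above the day 3 wells.

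Sequences upstream of contractile genes are shown because serum response factor, the partner of MYOCD, is known to bind the CArG box in many muscle promoters. The box (2 C, then 6 letters that are A or T, then 2 G) was searched on both strands in the 250 bases before the gene start of RefSeq GRCh38.p14, with the first listed promoter of each gene. Of the 18 sarcomere genes 12 were matched in that table, and 4 of those 12 (33.3%) held a box: ACTC1, LDB3, MYL7 and MYOM1. Over all 27305 promoters the share was 1.14%, and over the 14665 promoters of genes tested 1.08%. It was 0 of 12 for the calcium and excitation list and 0 of 13 for replication and mitosis. The motif TATAAA was in 2 of the 12 sarcomere promoters (16.7%), in 11.1% of all and in 6.93% of those of genes tested. The MEF2 box and GATAA were counted too. The MEF2 box was in 2 of the 12 (16.7%), in 2.90% of all and in 1.72% of those of genes tested. GATAA was in 5 of the 12 (41.7%), in 21.0% of all and in 14.6% of those of genes tested. These counts describe the letters in these windows, with no test. MYL7 (chr7:44141333-44141582, minus strand) and ACTC1 (chr15:34795550-34795799, minus strand) each held 1 box, whose first base lies 61 and 109 bases before the start, and MYH6 (chr14:23408274-23408523, minus strand) held none. The 3 sequences run 5′ to 3′ on the gene's strand, with CArG boxes and TATAAA in capitals.
MYL7: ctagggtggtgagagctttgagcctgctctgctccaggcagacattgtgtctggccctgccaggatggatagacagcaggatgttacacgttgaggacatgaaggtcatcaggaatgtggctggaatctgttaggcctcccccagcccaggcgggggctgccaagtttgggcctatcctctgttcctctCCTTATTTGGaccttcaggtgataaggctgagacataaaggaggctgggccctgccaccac
ACTC1: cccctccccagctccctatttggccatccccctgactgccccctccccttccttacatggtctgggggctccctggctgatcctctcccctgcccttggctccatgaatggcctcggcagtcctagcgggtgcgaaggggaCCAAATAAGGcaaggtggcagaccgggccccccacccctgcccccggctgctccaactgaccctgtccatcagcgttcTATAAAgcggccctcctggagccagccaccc
MYH6: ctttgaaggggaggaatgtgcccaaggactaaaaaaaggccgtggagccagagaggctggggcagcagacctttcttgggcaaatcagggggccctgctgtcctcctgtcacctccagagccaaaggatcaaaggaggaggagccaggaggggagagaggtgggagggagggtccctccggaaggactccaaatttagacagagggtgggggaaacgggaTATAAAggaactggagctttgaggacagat

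Most other thick and thin filament genes rose with them. MYH7, the beta myosin heavy chain of the ventricle, stood at 1.19, 12.0 and 6.11 CPM at day 3 and 74.0, 32.0, 122, 254 and 247 CPM at day 9 (log2 fold change 4.50, SE 1.13, adjusted p = 0.0017). Day 9 well 2 was the lowest and wells 4 and 10 the highest of their day, and the log2 fold change was 5.30 without day 3 well 2. MYH6 and MYH7 are near-identical neighbours, so the split of reads between them is uncertain. The essential light chains MYL4 (atrial) and MYL3 (ventricular) rose by 4.87 and 5.88, with 5.83 for MYL4 without day 3 well 1. TNNI1, the slow skeletal troponin I used by the foetal heart, had 8.92 ± 1.33 CPM at day 3 and 679 ± 247 CPM at day 9 (log2 fold change 6.25), while TNNI3, the adult cardiac form, had 12.4 ± 1.26 CPM at day 3 and 25.7 ± 12.6 CPM at day 9 and was not called (log2 fold change 1.05, adjusted p = 0.13). MYL2, the regulatory light chain of the mature ventricle, was also not called, at 0 to 0.223 CPM at day 3 and 0.114 to 1.03 CPM at day 9. Fitting the 8 libraries alone called both higher, at 1.09 for TNNI3 and 2.24 for MYL2.

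Genes of the framework rose as well. ACTN2, the actinin that crosslinks actin at the Z-disc, had 2.22 ± 0.306 CPM at day 3 and 378 ± 133 CPM at day 9 (log2 fold change 7.40, SE 0.59, adjusted p = 1.9e-12). MYBPC3, myosin binding protein C, had 1.82 ± 0.582 CPM at day 3 and 282 ± 81.4 CPM at day 9 (log2 fold change 7.26). TTN, the giant spring protein titin, started from a higher level, 215 ± 40.5 CPM at day 3 and 5996 ± 2630.5 CPM at day 9, and rose by 4.80 on the log2 scale. Its locus overlaps 7 other genes that were tested, TTN-AS1 among them. LDB3 and MYOM1, a Z-disc and an M-band protein, rose by 6.49 and 5.74, and LDB3 was lowest in day 9 well 2 at 60.2 CPM. NEBL, nebulette, was at 119 ± 8.98 CPM at day 3 and 852 ± 219.5 CPM at day 9 (log2 fold change 2.84).

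**Figure D3:**
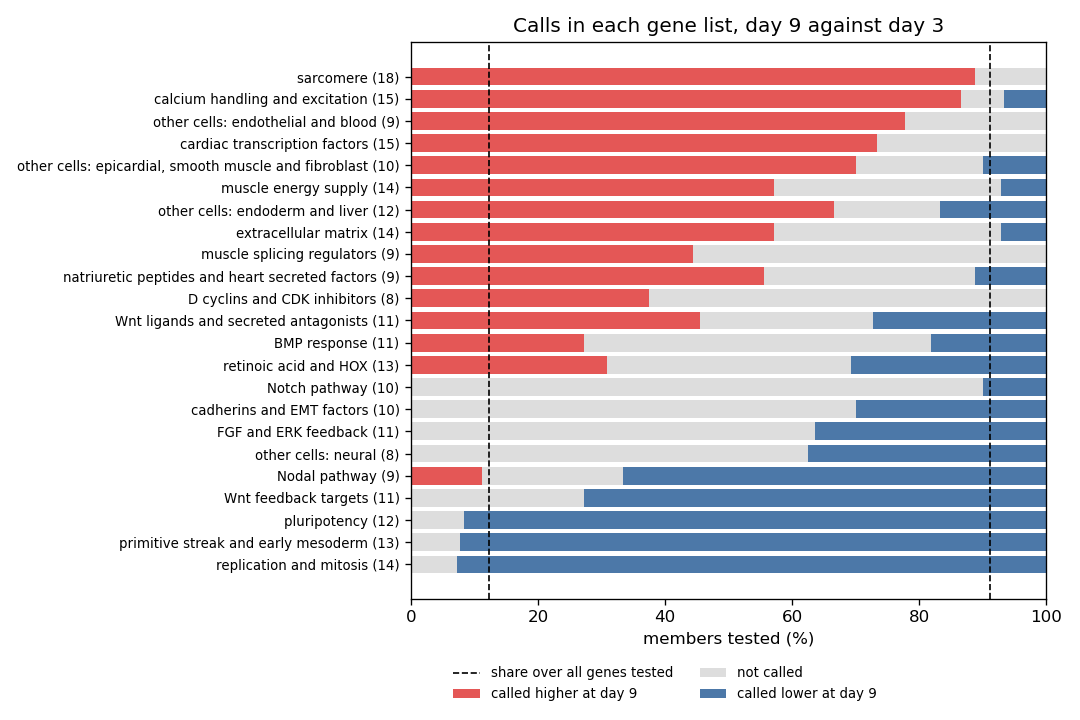
Share of tested members called higher (red), not called (grey) and called lower (blue) at day 9 in each of 23 gene lists, with the number tested in brackets. The dashed lines mark the shares over all genes tested, 12.3% higher from the left and 8.88% lower from the right. Sarcomere and calcium lists stand at the top, and replication, streak and pluripotency lists at the bottom.

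Calcium handling and excitation genes rose in 13 of 15 cases, with 1 lower, 1 not called and a median log2 fold change of 2.05. On TPM 7 of 13 were called higher and 1 lower. RYR2, the channel that releases calcium from the store, stood at 3.34, 5.18 and 5.51 CPM at day 3 and 323, 199.5, 297, 267 and 256 CPM at day 9 (log2 fold change 5.84, SE 0.50, adjusted p = 9.9e-12). PLN, phospholamban, the brake on the calcium pump, had 1.30 ± 0.511 CPM at day 3 and 108 ± 48.9 CPM at day 9 (log2 fold change 6.37), while its target ATP2A2, the pump itself, started higher at 188 ± 12.9 CPM and reached 779 ± 239.7 CPM (log2 fold change 2.05). SLC8A1, the sodium-calcium exchanger of the surface membrane, rose by 6.09. The calcium channel subunits CACNA1D and CACNA1C rose by 6.64 and 3.64. HCN4, the pacemaker channel, had 7.11 ± 2.97 CPM at day 3 and 73.8 ± 11.4 CPM at day 9 (log2 fold change 3.38, adjusted p = 9.9e-09). The gene that fell was GJA1, connexin 43, the gap junction protein of ventricle and of stem cells, with 1525, 1779 and 1951 CPM at day 3 and 133, 160.4, 125, 175 and 199 CPM at day 9 (log2 fold change -3.47, SE 0.26, adjusted p = 7.2e-13).

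Natriuretic peptides led the secreted factors, of which 5 of 9 rose, 1 fell and 3 were not called. On TPM 2 were called higher and 2 lower, and 2 were lower without day 3 well 2, day 3 well 3 or day 9 well 10. The count of 5 higher became 4 without any 1 of the day 3 wells and without day 9 well 4 or 10. It was also 4 with a lane term, and 6 without day 9 well 1. NPPA, the atrial natriuretic peptide, stood at 1.27, 1.75 and 1.13 CPM at day 3 and 412, 183, 453, 683 and 1407 CPM at day 9 (log2 fold change 8.82, SE 1.07, adjusted p = 2.9e-08), a spread of 183 to 1407 CPM among the day 9 wells. NPPB, the B-type peptide, ranged over 0.377 to 1.15 CPM at day 3 and 22.1 to 367 CPM at day 9 (log2 fold change 7.77, 7.04 without day 9 well 10 and 8.46 without day 3 well 1). NPPA overlaps CLCN6, a chloride transporter gene that was tested too. BMP4, the growth factor that patterns early mesoderm, fell from 138 ± 23.3 CPM to 38.1 ± 7.51 CPM (log2 fold change -1.85, adjusted p = 1.3e-06), whereas BMP5 and BMP7 of the same family rose by 1.65 and 1.83 on counts and were not called on TPM (0.92 and 0.56). Among 11 genes of the BMP response, 3 rose (SMAD6, SMAD9 and the antagonist NOG), 2 fell (MSX1 and MSX2) and 6 were not called. The share called was 45.5%, against 21.2% over all genes tested. The count of 3 became 5 without day 3 well 1 or without day 9 well 4, and on TPM 1 rose and 2 fell. The call of MSX1 was lost with a lane term (-0.98 against -1.35), and SMAD6 and SMAD9 were not called on TPM (0.51 and 0.58). NOG had 1.86 ± 0.176 CPM at day 3 and 13.2 ± 5.29 CPM at day 9 (log2 fold change 2.82).

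Energy supply genes of muscle rose in 8 of 14 cases, 1 fell and 5 were not called, and on TPM 5 of 12 were called higher and 4 lower. The fall was that of HK2, a hexokinase (log2 fold change -1.09, adjusted p = 0.0053), and without day 3 well 3 it was not called (-0.99). The summed level of the list was lower at day 9, with 2686 to 3315 CPM at day 3 and 1662 to 2242 CPM at day 9. CKM, muscle creatine kinase, which buffers ATP, had 2.21 ± 0.751 CPM at day 3 and 109 ± 42.1 CPM at day 9 (log2 fold change 5.62, SE 0.64, adjusted p = 7.2e-09). MB, myoglobin, the oxygen store, had 0.886 ± 0.287 CPM at day 3 and 26.1 ± 10.0 CPM at day 9 (log2 fold change 4.87), and FABP3, the fatty acid carrier of heart muscle, 1.69 ± 0.435 CPM at day 3 and 38.7 ± 14.8 CPM at day 9 (log2 fold change 4.51). PPARGC1A, a coactivator of mitochondrial genes, rose by 5.60. COX6A2, the muscle form of a cytochrome oxidase subunit, had 1, 1 and 0 counts at day 3 and 314, 148, 259, 249 and 437 counts at day 9. The lactate dehydrogenase LDHA, at the end of glycolysis, had 1406 ± 243 CPM at day 3 and 712 ± 134 CPM at day 9 and missed the fold threshold on counts (log2 fold change -0.98, adjusted p = 5.2e-04). It was called lower on TPM (-1.63) and without any of day 3 well 1 (-1.10), day 3 well 2 (-1.02), day 9 well 1 (-1.09) or day 9 well 10 (just past the threshold), and with a lane term (-1.02). Transcripts encoded in the mitochondrial genome took 0.397 ± 0.035% of counts at day 3 and 0.409 ± 0.142% at day 9. The difference was within the spread of the wells (exact permutation test of the means, two-sided, p = 0.929, adjusted over 2 such tests 0.929, smallest possible p 0.0357).

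Primitive streak and early mesoderm genes were nearly all lower at day 9: 12 of 13 fell, 0 rose and the median log2 fold change was -4.68, or -4.59 with MSGN1 at its bound. EOMES, the T-box factor above MESP1 in the network, stood at 59.7, 97.7 and 148 CPM at day 3 and 0.227, 0.135, 0.197, 0.390 and 0.171 CPM at day 9 (log2 fold change -8.77, SE 0.60, adjusted p = 4.3e-14). TBXT, brachyury, the defining factor of the streak, had 532, 541 and 453 counts at day 3 and 5, 0, 0, 5 and 0 counts at day 9 (log2 fold change -7.95, adjusted p = 3.0e-12). That value was -8.59 without day 9 well 1 and -7.30 with a lane term. The day 9 wells with TBXT counts, 1 and 4, shared lanes with day 3 wells, and the part of that was not tested. MESP2, the neighbour and relative of MESP1, had 32.6 ± 14.6 CPM at day 3 and 0.362 ± 0.156 CPM at day 9 (log2 fold change -6.46). MSGN1, a factor of presomitic mesoderm, had 39, 22 and 18 counts at day 3 and 0, 0, 0, 0 and 0 counts at day 9, at least 7.92-fold lower at a floor of 3 counts per library. TBX6, MIXL1 and LHX1, further factors of streak and early mesoderm, fell by 4.68, 4.59 and 5.28 on the log2 scale. LHX1 was highest in day 9 well 4, at 3.58 CPM, and its log2 fold change was -6.00 without that well.

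Receptors on mesoderm cells differed among themselves. APLNR, the apelin receptor that guides migrating heart precursors, stood at 615, 938 and 885 CPM at day 3 and 45.9, 60.3, 45.6, 31.3 and 24.9 CPM at day 9 (log2 fold change -4.29, SE 0.35, adjusted p = 4.6e-12). PDGFRA, a growth factor receptor used to sort cardiac mesoderm, had 617 ± 114 CPM at day 3 and 262 ± 70.8 CPM at day 9 (log2 fold change -1.24, adjusted p = 0.01). That call was lost without day 3 well 1 (-1.11, adjusted p = 0.057). KDR, the VEGF receptor of cardiovascular precursors and endothelium, had 311 ± 57.6 CPM at day 3 and 288 ± 63.4 CPM at day 9 and was not called (log2 fold change -0.11), with a sign that changed when single wells were left out.

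Of the genes around Wnt signalling, which CHIR99021 turns on and IWP2 turns off, feedback targets moved mostly down, while ligands and antagonists moved both ways. The days differ in inhibitor exposure and in time, and the part of each was not tested. Of 11 feedback targets, 8 fell (7 of 10 on TPM), 0 rose and 3 were not called, with a median log2 fold change of -1.93. AXIN2, the standard readout of the pathway, stood at 53.0, 58.5 and 48.3 CPM at day 3 and 25.1, 24.8, 22.2, 25.5 and 24.1 CPM at day 9 (log2 fold change -1.13, SE 0.18, adjusted p = 4.4e-06). SP5, LGR5 and NKD1, a transcription factor, a receptor and an inhibitor induced by the pathway, fell by 3.31, 4.80 and 3.93 on the log2 scale. LEF1 and TCF7, the DNA-binding partners of beta-catenin, fell by 2.03 and 1.71. Among 11 ligands and secreted antagonists 5 rose, 3 fell and 3 were not called, and on TPM 2 rose and 4 fell of 10. WNT8A, a ligand of the streak, stood at 67.3, 78.1 and 79.5 CPM at day 3 and 0.114, 0.0337, 0.236, 0.390 and 0.0428 CPM at day 9 (log2 fold change -8.76, SE 0.54, adjusted p = 9.2e-15, and -9.41 on the log2 scale without day 9 well 4). WNT3 and WNT5A fell too, by 2.46 and 1.47. WNT11, a non-canonical ligand of the heart, rose from 4.21 ± 0.620 CPM to 37.5 ± 8.56 CPM (log2 fold change 3.15), and WNT2, a ligand of early heart mesoderm, had 2, 0 and 2 counts at day 3 and 708, 483, 247, 228 and 619 counts at day 9.

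Nodal signalling genes fell in 6 of 9 cases (6 of 8 on TPM), with 1 higher and 2 not called (median -1.84). TDGF1, the Nodal coreceptor cripto, had 128 ± 59.5 CPM at day 3 and 4.68 ± 1.80 CPM at day 9 (log2 fold change -4.78), and the antagonists LEFTY2 and CER1 fell by 3.63 and 4.51. The fall of NODAL itself was lost without day 3 well 1 (-0.66 against -1.66). In the FGF and ERK list 4 of 11 fell and 0 rose (36.4% called, against 21.2% over all genes tested). The streak ligands FGF4 and FGF17 fell by 6.60 and 5.43. Of 10 Notch pathway genes only the ligand DLL3 was called, with 78.7 ± 20.9 CPM at day 3 and 6.20 ± 1.45 CPM at day 9 (log2 fold change -3.67, adjusted p = 6.6e-10). The 10.0% called in the Notch list lies below the 21.2% over all genes. In the retinoic acid and HOX list 4 rose and 4 fell of 13. CYP26A1, which breaks down retinoic acid, fell from 58.2 ± 32.4 CPM to 0.657 ± 0.595 CPM (log2 fold change -6.44, and -7.16 without day 9 well 4). HOXB1, an anterior HOX gene of early mesoderm, fell by 4.52. The count of genes that fell was 2 without day 3 well 1, and on TPM 0 rose and 3 fell of 11. The nuclear receptor NR2F2, a factor of the atrium, was at 0.298 to 0.604 CPM at day 3 and 5.05 to 11.5 CPM at day 9 (log2 fold change 3.99) and missed the fold threshold on log2(TPM + 1) (0.90).

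**Figure D4:**
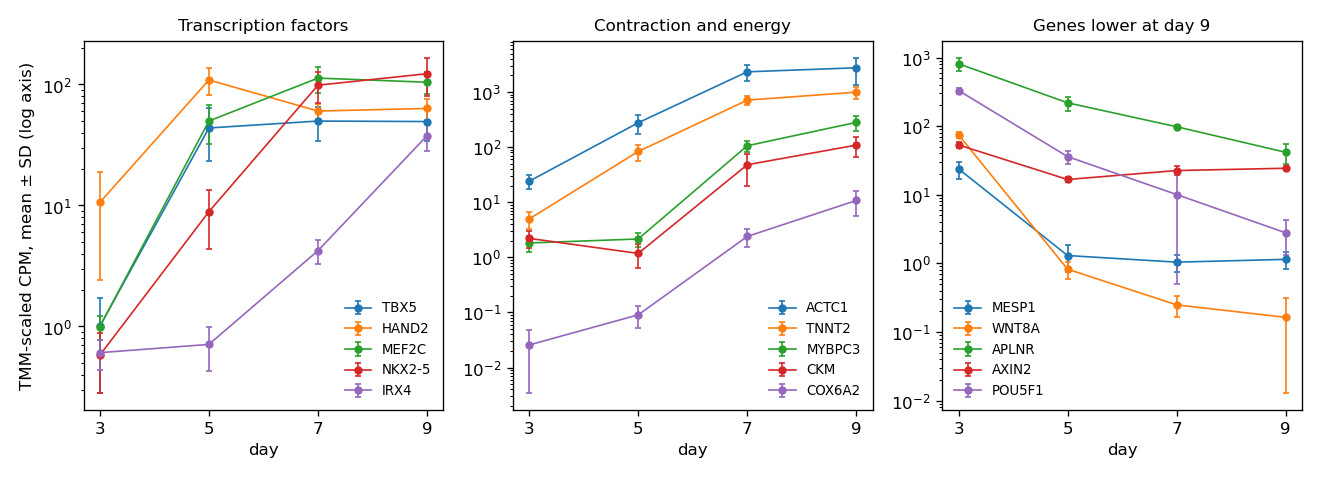
Mean TMM-scaled CPM on a log axis at days 3, 5, 7 and 9, with SD bars over wells (n = 3 at day 3 and 5 at the other days), where a lower bar stops at 5% of the mean if the SD exceeds 95% of it. TBX5 and HAND2 are near or above their day 9 level at day 5, NKX2-5 at day 7 and IRX4 only at day 9, while MESP1 and WNT8A are low from day 5 on.

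The wells of days 5 and 7 (5 each) place these changes in time. The steps between days use the same day 3 and day 9 wells as the comparison above, so they are described and not tested. Of the genes called higher, 52.2% had passed 50% of their log2 change by day 5 and 87.6% by day 7. For the genes called lower the shares were 57.8% and 86.9%. The day means ran in one order through all 4 days in 59.4% of the genes called higher and 62.9% of those called lower. TBX5 was at 43.7 ± 20.3 CPM at day 5, close to its day 9 mean of 49.4. HAND2 was highest at day 5 with 109 ± 27.1 CPM. NKX2-5 followed, with 8.88 ± 4.53 CPM at day 5 and 98.7 ± 28.6 CPM at day 7. IRX4 came last, with 0.711 ± 0.278, 4.23 ± 0.935 and 37.7 ± 9.22 CPM at days 5, 7 and 9.

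Contractile genes rose at different times. ACTC1 had reached 277 ± 105 CPM and TNNT2 83.4 ± 28.0 CPM at day 5. MYBPC3 was still at 2.15 ± 0.622 CPM at day 5, near its day 3 level, and at 106 ± 25.3 CPM at day 7. NPPA was at 2.27 ± 1.35 CPM at day 5, 64.5 ± 30.2 CPM at day 7 and 628 ± 470.3 CPM at day 9, so most of its increase in CPM fell in the last 2 days. MESP1 had dropped to 1.30 ± 0.560 CPM by day 5 and WNT8A to 0.823 ± 0.230 CPM. PDGFRA rose first, to 1120.3 ± 286 CPM at day 5, and was lower afterwards, at 509.6 ± 92.1 CPM at day 7. AXIN2 was lowest at day 5, the time of the IWP2 medium, with 16.7 ± 1.39 CPM, and stood at 22.6 ± 3.32 CPM at day 7 and 24.3 ± 1.30 CPM at day 9.

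Pluripotency genes, still present in day 3 mesoderm, were lower in 11 of 12 cases (10 of 11 on TPM) with 0 higher (median -2.62). POU5F1, the octamer factor OCT4, stood at 305, 321 and 367 CPM at day 3 and 3.94, 1.18, 1.69, 2.47 and 4.66 CPM at day 9 (log2 fold change -6.90, SE 0.58, adjusted p = 6.8e-12). It overlaps TCF19, which was also tested. NANOG and DPPA4 fell by 4.86 and 3.44. LIN28A, an RNA-binding protein that blocks let-7 microRNA processing, stood at 425 ± 34.1 CPM after 1699.6 ± 38.6 CPM at day 3 (SE of the log2 fold change 0.26, adjusted p = 1.2e-07). DNMT3B, the DNA methyltransferase of early embryonic cells, fell by 2.41 with an adjusted p of 2.6e-15.

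Replication and mitosis genes fell in 13 of 14 cases with 0 higher, with a median log2 fold change of -1.70. The 13 log2 fold changes ran from -2.06 to -1.38, and CCNE1, the cyclin of the G1/S step, was not called. MKI67, the proliferation antigen, stood at 198, 198 and 174 CPM at day 3 and 60.6, 46.9, 64.6, 61.5 and 34.6 CPM at day 9 (log2 fold change -1.82, SE 0.42, adjusted p = 7.6e-04). PCNA, the sliding clamp of replication, and PLK1, a mitotic kinase, fell by 1.71 and 1.90. Among the 8 D cyclins and CDK inhibitors 3 rose and 0 fell, and on TPM 2 of 7 rose. The share called on counts was 37.5%, against 21.2% over all genes tested. CDKN1C, the inhibitor p57, had 13.8 ± 2.14 CPM at day 3 and 99.9 ± 62.7 CPM at day 9 (log2 fold change 2.86, adjusted p = 6.2e-06). Without day 9 well 2 its log2 fold change was 2.43. CDKN2B, the inhibitor p15, rose by 4.54. In these bulk samples fewer dividing cells and less RNA of these genes per cell cannot be told apart, and the same holds for every list.

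Markers of cells other than heart muscle changed as well. Of 12 endoderm and liver genes 8 rose, 2 fell and 2 were not called, and on TPM 7 rose and 2 fell. The summed level of the list was 176 to 238 CPM in the day 3 wells and 820.2 to 7867 CPM in the day 9 wells. AFP, alpha-fetoprotein of yolk sac and foetal liver, stood at 6.44, 4.28 and 4.68 CPM at day 3 and 1217, 4221, 917, 175 and 244 CPM at day 9 (log2 fold change 8.04, SE 1.75, adjusted p = 3.5e-04). Well 2 held the most, and without it the log2 fold change was 6.96 (adjusted p = 9.3e-04). With a lane term it was 9.09. APOA1, an apolipoprotein, stood at 12.6, 4.77 and 4.23 CPM at day 3 and 300.0, 1341, 163, 35.9 and 56.9 CPM at day 9, with a log2 fold change of 5.72 with well 2, 4.28 without it and 6.38 without day 3 well 1. TTR, transthyretin, had 0.685 ± 0.298 CPM at day 3 and 271 ± 141 CPM at day 9 (log2 fold change 8.62). FOXA2, the defining endoderm factor, was not called at 32.8 ± 6.28 CPM at day 3 and 26.5 ± 7.26 CPM at day 9 (log2 fold change -0.31), and SOX17, a factor of early endoderm, fell by 3.97. No member of the list was below 1 CPM in all day 9 wells. Well 2 was both the highest for this list and the lowest for the sarcomere list, and the part of such cells in other results was not tested.

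Of the 9 endothelial and blood genes tested (of 10) 7 rose (6 of 8 on TPM), 0 fell and 2 were not called, from a sum of 49.3 to 58.4 CPM to 234 to 316 CPM. CDH5, the cadherin of endothelial junctions, stood at 1.11, 1.01 and 0.604 CPM at day 3 and 57.7, 51.4, 63.0, 61.9 and 37.3 CPM at day 9 (log2 fold change 5.90, SE 0.64, adjusted p = 2.8e-09). PECAM1 and TAL1, an adhesion molecule of endothelium and a factor of blood and endothelium, rose by 3.81 and 5.82, with 4.49 for PECAM1 under a lane term. Of 10 epicardial, smooth muscle and fibroblast genes 7 rose (6 of 7 on TPM), 1 fell and 2 were not called, and the list summed to 96.0 to 135 CPM at day 3 and 543 to 1431 CPM at day 9. ACTA2, smooth muscle actin, which early heart muscle also makes, had 3.45 ± 1.21 CPM at day 3 and 433 ± 178 CPM at day 9 (log2 fold change 6.97), and the epicardial factor WT1 ranged over 0.0397 to 0.186 CPM at day 3 and 4.33 to 16.6 CPM at day 9 (log2 fold change 6.37, and 7.11 without day 3 well 2). Of 8 neural genes 0 rose and 3 fell (3 of 4 on TPM), and 1 rose without day 9 well 2. On counts 37.5% were called, against 21.2% over all genes tested. The summed level of this list was not lower at day 9. It was 578 to 659 CPM at day 3 (mean 620) and 444 to 1116 CPM at day 9 (mean 738). OTX2, a forebrain factor also made in stem cells, fell from 70.9 ± 37.0 CPM to 4.04 ± 2.01 CPM, and 3 of the 8 members were below 1 CPM in every day 9 well. SOX1, a defining neural factor, was at 0 to 0.340 CPM at day 3 and 0 to 0.101 CPM at day 9.

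Extracellular matrix genes rose in 8 of 14 cases with 1 lower, and on TPM in 5 with 1 lower. COL3A1, a fibrillar collagen, stood at 12.9 ± 0.0792 CPM at day 3 and 1842, 3858, 1292, 1252 and 1323 CPM at day 9 (log2 fold change 7.21, SE 0.81, adjusted p = 5.2e-09), and without day 9 well 2, its highest well, the log2 fold change was 6.79. LAMA4, the laminin chain of vessel and muscle basement membranes, ranged over 0.834 to 1.45 CPM at day 3 and 90.9 to 183 CPM at day 9 (log2 fold change 6.90, adjusted p = 5.9e-14). POSTN, periostin, was at 0.596, 0.372 and 0.302 CPM at day 3 and 12.5, 65.4, 7.47, 10.5 and 11.1 CPM at day 9, with 5.65 on the log2 scale and 4.61 without well 2. ELN, elastin, fell from 33.3 ± 6.32 CPM to 5.22 ± 1.34 CPM (log2 fold change -2.67). In the list of cadherins and factors of epithelial-mesenchymal transition 3 of 10 fell and 0 rose, and on TPM 6 fell. The 30% called on counts compares with 21.2% over all genes tested. CDH11 and SNAI2, a mesenchymal cadherin and a transition factor, fell by 2.16 and 2.20. Without day 9 well 2 the log2 fold change of CDH11 was -2.35. The log2 ratio of CDH2 to CDH1, N-cadherin to E-cadherin, on log2(TPM + 1) was 1.81 ± 0.156 at day 3 and 2.04 ± 0.491 at day 9, a difference within the spread of the wells (exact permutation test of the means, two-sided, p = 0.464, adjusted 0.929). Of 9 splicing regulators 4 rose and 0 fell on counts, 1 fell without day 3 well 1 or day 9 well 3, and 1 rose and 1 fell on TPM. On counts 44.4% of them were called, against 21.2% over all genes tested. MBNL1, a regulator of muscle splicing, had 2.31 ± 0.364 CPM at day 3 and 25.5 ± 2.55 CPM at day 9 (log2 fold change 3.46).

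**Figure D5:**
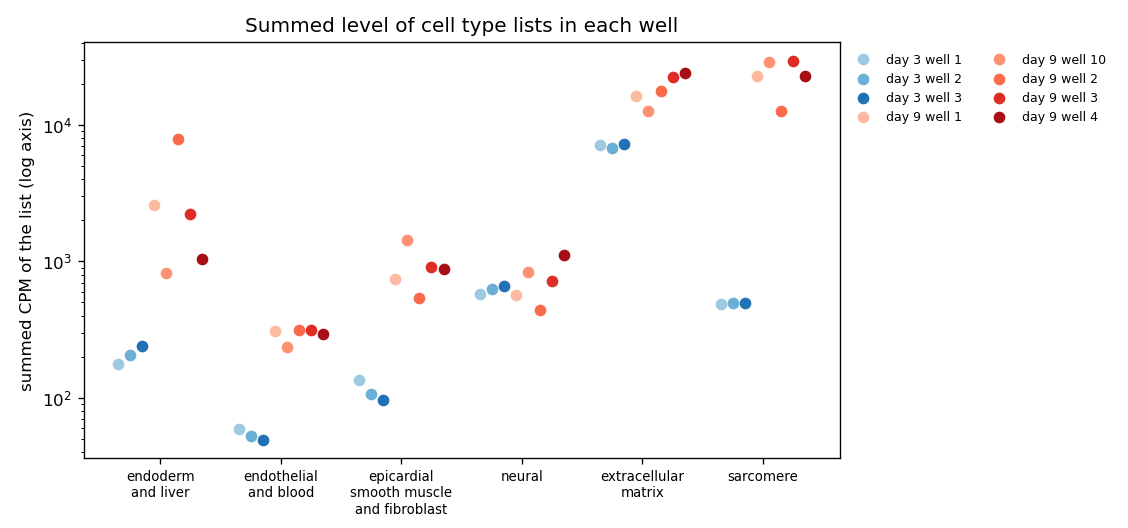
Summed TMM-scaled CPM of 6 gene lists on a log axis, with 1 point per well, blue for day 3 and red for day 9. Day 9 well 2 is highest for endoderm and liver genes and lowest among day 9 wells for sarcomere genes.

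The protein-coding genes with the largest rises, at a mean TPM of at least 10 at day 9 and with no overlap of the wells, included heart genes and genes of the other cell types. Of the 15, MYH6, NPPA, TTR, SERPINA1, AFP and COX6A2 belong to the lists above. CGA, the alpha subunit of the glycoprotein hormones of pituitary and placenta, had 0, 3 and 1 counts at day 3 and 702, 462, 1552, 2038 and 1441 counts at day 9, so that it was near 0 in every day 3 well and high in every day 9 well. It was at 0.131 ± 0.0846 CPM at day 5 and 37.0 ± 18.2 CPM at day 7. RRAD, a small GTPase that restrains the calcium channel, had 0.151 ± 0.0976 CPM at day 3 and 63.5 ± 22.2 CPM at day 9 (log2 fold change 8.66). CRHBP, the binding protein of corticotropin-releasing hormone, had 0.309 ± 0.150 CPM at day 3 and 113 ± 43.4 CPM at day 9 (log2 fold change 8.50). CAPN3, a muscle calpain that binds titin, and ASB2, a ubiquitin ligase subunit of muscle, rose by 8.46 and 7.86. VCAM1, an adhesion molecule of developing myocardium, had 0.623 ± 0.0621 CPM at day 3 and 149 ± 30.1 CPM at day 9 (log2 fold change 7.89). VTN, vitronectin, rose by 7.91, and the liver genes AHSG and APOC3 were spread over 1.72 to 239 CPM and 0.293 to 50.1 CPM at day 9 with well 2 highest. Without well 2 the log2 fold change was 6.57 in place of 8.32 for AHSG and 6.12 in place of 8.17 for APOC3, which was 8.99 without day 3 well 3.

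Among the 15 largest falls by the same rule were EOMES, WNT8A, POU5F1, MESP2 and CYP26A1, described above. ZIC2, a zinc finger factor of the early embryo, fell by 5.47. The neuropeptide genes NTS (neurotensin) and GAL (galanin) fell from 134 ± 15.5 to 2.38 ± 0.608 CPM and from 30.4 ± 2.22 to 0.462 ± 0.109 CPM. DCLK1, a microtubule-binding kinase, and ADCY2, an adenylate cyclase, fell by 6.87 and 5.35 on the log2 scale. SCGB1A1, a secretoglobin known from airway club cells, had 123, 217 and 132 counts at day 3 and 1, 0, 0, 2 and 0 counts at day 9. The day 9 wells with SCGB1A1 counts, 1 and 4, shared lanes with day 3 wells, and the part of that was not tested. SAMD3, PSKH2 and the cystatin CST1 were also among them and fell by 6.51, 5.96 and 5.36. For CST1 the log2 fold change was -5.97 without day 9 well 3.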

How the data were processed

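RNA of 8 of the 44 libraries was compared, 3 wells of day 3 and 5 of day 9. Per the labels' protocols, stranded total-RNA libraries were made and read as 150 bp pairs. Per the submitters' processing notes, reads were handled with cutadapt, STAR 2.5.2b and RSEM 1.2.31 on hg38. The authors deposited estimated counts per gene, of which 93.8% were whole, and TPM, scaled for length and to a fixed sum. The deposited RNA integrity score runs from 1 to 10. The annotation release and the use of strand are not given in the sources used here, so overlapping genes are uncertain.

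All 44 columns were matched to labelled samples, with 0 left over. Symbols were found for 56321 of 60499 identifiers, and coordinates come from GENCODE release 29 (GRCh38, the same build). Estimated counts were rounded, filtered with filterByExpr of edgeR 4.0.16 (R 4.3.3) to 22955 genes and scaled by TMM. The quasi-likelihood fit used all 44 libraries, each group with its own mean, and day 9 was contrasted with day 3. Its p-values therefore rest on a spread pooled over all groups. Fitted on the 8 libraries alone, adjusted p was larger for ACTN2 (4.6e-07 against 1.9e-12) and ACTC1 (2.3e-06 against 8.3e-11). It was smaller for BMP7 (5.9e-06 against 5.5e-04). P-values were adjusted by Benjamini-Hochberg over all genes. CPM are TMM-scaled, given as mean ± SD (n = 3 at day 3, n = 5 at days 5, 7 and 9), and log2 fold changes carry a standard error (SE). Genes named are members of 23 lists (267 genes), and the 15 largest called rises and falls among protein-coding genes whose mean TPM reached 10 in the higher day and wells of the days that do not overlap. Some genes that the lists or this rule hold are not reported here. Members and lists were chosen with earlier results of these data known. Alternatives were other scalings and filters, DESeq2 1.42.0, limma 3.58.1 on log2(TPM + 1), a lane term and leaving out each well. The fit was also run on counts simulated for 22955 genes with the spread that it had itself estimated. Means were equal in all groups except for 200 genes with a mean above 1 CPM, which were changed at day 9. It called 86% of genes changed by 1.5 and 96% of those changed by 3 on the log2 scale, and 6 unchanged genes. The shift in protein-coding share and the unequal spread of day 3 and day 9 were not simulated, so these rates may not hold for the real data.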

Additional observations from a re-analysis of the deposited data

Results flagged for a closer look

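In 12 genes named above 1 of the 5 day 9 wells lay further from the rest than Dixon's 95% critical value allows, where chance gives about 1 in 20 such groups and 140 groups were tested. Well 2 was the outlying well in 8 of them. It was high for the liver genes AFP (4221 CPM against 175 to 1217 in the other wells), APOA1 (1341 against 35.9 to 300.0), AHSG (239 against 1.72 to 45.4) and APOC3 (50.1 against 0.293 to 7.89). It was also high for the matrix and mesenchymal genes COL3A1 (3858 against 1252 to 1842), POSTN (65.4 against 7.47 to 12.5) and CDH11 (176 against 93.3 to 117). It was low for the Z-disc gene LDB3 (60.2 against 109.9 to 128).

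Well 10 was high for ISL1 (27.6 CPM against 8.01 to 12.8) and for MSX2 (39.5 against 12.1 to 18.3). Well 4 was high for LHX1 (3.58 against 0.341 to 1.11). Well 1 was high for TBX5 (76.2 against 37.5 to 46.3).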

How the results depend on the processing

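The count of called genes, 4870, was 8238 with no minimum fold. With limma on TPM the genes called higher were 900 at a pseudocount of 0.1, 651 at 1 and 560 at 1 with no filter, against 2832 on counts, and those called lower were 4506, 3219 and 3100 against 2038. Leaving out 1 well at a time gave 4317 to 4803 called genes, 2382 to 2796 higher and 1924 to 2007 lower. Of the 266 list genes tested, 180 were called, and 176 to 183 without 1 well. The difference in the mitochondrially encoded share of counts, 0.0126 percentage points, was -0.109 as a share of TPM and ran from -0.0364 to 0.0550 without 1 well. It was negative without day 3 well 3 (-0.00688), day 9 well 1 (-0.0364) or day 9 well 3 (-0.00544). Depth limits the folds of genes near 0: CGA and COX6A2 had 0 to 3 counts in each day 3 well, and no fold is given for them. Some folds that are given also rest on wells near 0 and carry the same limit. Among them are those of TBXT and WNT8A, near 0 at day 9, and of WT1 and APOC3, near 0 at day 3.

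Signs also changed for 4 genes that were not called. GATA6 was 0.0475 with a CPM filter, 0.0296 with DESeq2 and with RLE scaling, 0.0194 with no filter, 0.0356 in the 8 libraries alone and -0.0616 to 0.0276 without 1 well. KDR was 0.130 with a lane term and -0.229 to 0.0280 without 1 well. TBX3 was -0.0585 and -0.0390 on TPM at pseudocounts of 0.1 and 1, with or without a filter. CCNE1 was -0.507 and -0.440 in the same fits and -0.0637 to 0.455 without 1 well. For each of these the cause was not tested.

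The days share the replicate numbers 1, 2 and 3, and the deviations of same-numbered wells correlated at 0.0666, 0.00316 and 0.213, so the number was not taken as a pairing. With the replicate number as a block, 4869 genes were called in a fit of the 8 libraries, against 4840 without it, GATA6 was 0.118 and KDR 0.0471. In that fit ISL1 was called lower (-1.30, adjusted p = 1.7e-04, against -0.81 and 0.058 without the block), and PDGFRA (-0.92) and HK2 (-0.96) missed the fold threshold. Not every well correlated best with its own number: day 3 wells 1 and 2 did so with day 9 wells 10 and 4 (0.113 and 0.0871).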

Other observations

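Of 1435 antisense genes tested, 167 were called higher and 63 lower, so 72.6% of the called were higher, while 2177 of 16855 protein-coding genes were higher and 1716 lower (55.9% higher). The shares are a description with no test, and on TPM 10 antisense genes were higher and 31 lower, against 549 and 3025 protein-coding genes. Protein-coding genes took a smaller share of counts and of TPM at day 9, as given above, and the part of these shifts was not tested.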
